A study of Mus musculus with 10 samples.

Results

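The 35 genes described here are known for their expression in the endothelium that lines blood vessels. They were chosen by name, with earlier results of these data known. All 35 were represented among the 18194 genes measured on microarrays of mouse secondary palate at E14.5, the stage of palatal fusion. The mutant embryos had the genotype Tgfbr2fl/fl;Wnt1-Cre, and the control embryos had the genotype Tgfbr2fl/fl with no Cre named and are called wildtype in the titles. Floxed Tgfbr2 alleles and the C57B6 strain label were common to both groups, the sex was not determined, and each group had 5 samples on 1 array each. Wnt1-Cre is a recombinase driven by the Wnt1 promoter in the neural crest, whose descendants form most of the palatal mesenchyme. Vessel endothelium of the head derives from mesoderm, so the endothelial cells in the mutant palate are expected to keep their own Tgfbr2, the gene of the type II TGF-beta receptor. Nothing in the labels states that the 5 samples of a group are different embryos, and the p-values therefore describe the spread among the samples, some of which may be technical. An earlier stage named in the series design was not analysed here. Tgfbr2 itself read 10.5, 10.8, 10.7, 10.6 and 10.7 in control replicates 1 to 5 and 10.7, 10.7, 10.8, 10.7 and 10.8 in mutant replicates 1 to 5 (log2). The difference of 0.08 (95% confidence interval -0.06 to 0.22) does not check the deletion, because Wnt1-Cre spares the other lineages of the palate and the position of the probes against the floxed segment is unknown here.

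Endothelial cells are held together by junction proteins such as VE-cadherin and claudin 5. They receive growth signals through the VEGF receptors and the TIE receptors, and they keep their identity through transcription factors of the ETS and SOX families, among them ERG, FLI1 and SOX17. In the growing palate they bring blood to shelves that are built largely by neural crest mesenchyme, and TGF-beta is known as a signal between endothelium and the cells around it.

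ETS factors bind DNA around a GGAA core, and the genes Erg and Fli1 are themselves members of the list, so the bases just upstream of the start sites of 4 members are shown. Ctla2b and Ctla2a are shown because these neighbouring genes gave different results, Cldn5 because it was lower in the mutant, and Apln because it was higher. Each line gives the 250 bases before the start site in RefSeq (build GRCm38.p6), 5′ to 3′ on the gene's strand, with GGAA and its reverse complement TTCC in capitals.
Ctla2b, chr13:60897448-60897697, minus strand: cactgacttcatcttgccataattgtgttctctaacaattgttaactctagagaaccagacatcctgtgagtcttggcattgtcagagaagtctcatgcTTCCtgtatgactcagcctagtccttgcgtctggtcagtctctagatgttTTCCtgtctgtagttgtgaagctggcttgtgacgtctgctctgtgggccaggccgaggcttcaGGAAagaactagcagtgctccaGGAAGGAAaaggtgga
Ctla2a, chr13:60936626-60936875, minus strand: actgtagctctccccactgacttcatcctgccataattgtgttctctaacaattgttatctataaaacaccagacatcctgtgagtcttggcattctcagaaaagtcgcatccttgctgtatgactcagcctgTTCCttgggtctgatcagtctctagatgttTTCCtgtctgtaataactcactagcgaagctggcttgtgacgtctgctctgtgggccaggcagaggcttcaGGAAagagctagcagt
Cldn5, chr16:18776597-18776846, plus strand: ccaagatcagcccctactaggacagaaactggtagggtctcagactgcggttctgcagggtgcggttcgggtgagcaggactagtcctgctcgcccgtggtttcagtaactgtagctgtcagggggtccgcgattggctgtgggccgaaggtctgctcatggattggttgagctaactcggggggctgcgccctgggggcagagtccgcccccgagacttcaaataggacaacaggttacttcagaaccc
Apln, chrX:48034854-48035103, minus strand: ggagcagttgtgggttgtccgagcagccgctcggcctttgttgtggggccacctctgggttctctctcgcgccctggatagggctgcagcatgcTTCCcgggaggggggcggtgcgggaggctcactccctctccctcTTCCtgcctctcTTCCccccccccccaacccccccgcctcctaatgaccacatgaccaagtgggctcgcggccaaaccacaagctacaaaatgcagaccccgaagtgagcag
The start sites of Ctla2b and Ctla2a lie 39.2 kb apart on chromosome 13. Ctla2a has a second RefSeq start site further downstream, whose window is not shown. That window held 5 GGAA matches, as many as the Ctla2b window, against 3 in the Ctla2a window shown, so the contrast between the printed windows depends on the start site. A global alignment of the 2 windows shown had 208 identical positions in 272 columns (76.5%), with 20 mismatches and 44 gap columns. RefSeq windows were found for 19 of the 35 members, 25 windows in all because some genes have several start sites. No window was found for Icam2, Fli1 or Nos3, which were also lower in the mutant. At least 1 GGAA was present on either strand in 23 of these 25 windows (92%) and in 93.4% of all 32851 windows of this length, and the 2 without it were the Cldn5 window and 1 of 3 Erg windows. The longer ETS sequence CAGGAAG, which contains GGAA and was searched on both strands, was present in 11 of the 25 (44.0%) and in 10.8% of all windows. The SOX core ACAAT was present in 9 of the 25 and in 27.7% of all windows. Such matches describe these letters only, and several windows of 1 gene can overlap.

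Most of the endothelial genes did not pass the test, and those that did were mainly lower in the mutant. Differences are given as mutant minus control on the log2 scale of the array values, tested with limma and adjusted by the Benjamini-Hochberg method over all 18194 genes, and a gene was called at an adjusted p under 0.05. Icam2, Ctla2b, Cldn5, Fli1, Nos3 and Erg were lower and Apln was higher, while the other 28 were not called. These 7 of 35 compare with 8.27% of all genes called in either direction. The 6 decreases among 35 (17.1%) compare with 5.36% of all genes called lower, and the 1 increase (2.86%) with 2.91% of all genes called higher. Because the list was chosen with earlier results of these data known, these shares are a description only. Among the brighter 60% of genes, which held 31 of the 35, 6 of these 31 were lower (Lmo2 now among them) against a higher background of 10.01%. With each array centred on its median, which moved the median of all genes to 0.08, the split was 2.61% of all genes lower and 7.05% higher, with 4 endothelial genes lower (Cldn5, Icam2, Fli1 and Ctla2b) and 2 higher (Apln and Esm1). That move of 0.08 is smaller than the 0.1 step of the rounded values, and the part of rounding in this split was not tested. Without centring, the median difference over the 35 was -0.02, against 0.00 over all genes, with 18 negative, 15 positive and 2 at zero. The mutant arrays lay below every control array for 5 members, namely Cldn5, Icam2, Fli1, Nos3 and Ctla2b, against 4.93% of all genes, and above every control array for 0 members, against 1.82%. Fewer endothelial cells and less RNA per cell cannot be told apart in RNA of whole tissue. For 25 of the 28 genes not called, the 95% confidence interval of the difference lay within a 1.5-fold change in either direction. The 3 others were Mmrn2, Esm1 and Ctla2a. The called genes other than Ctla2b also changed by less than 1.5-fold (1.25-fold to 1.45-fold). This bound therefore does not show that the genes within it were unchanged.

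**Figure D1:**
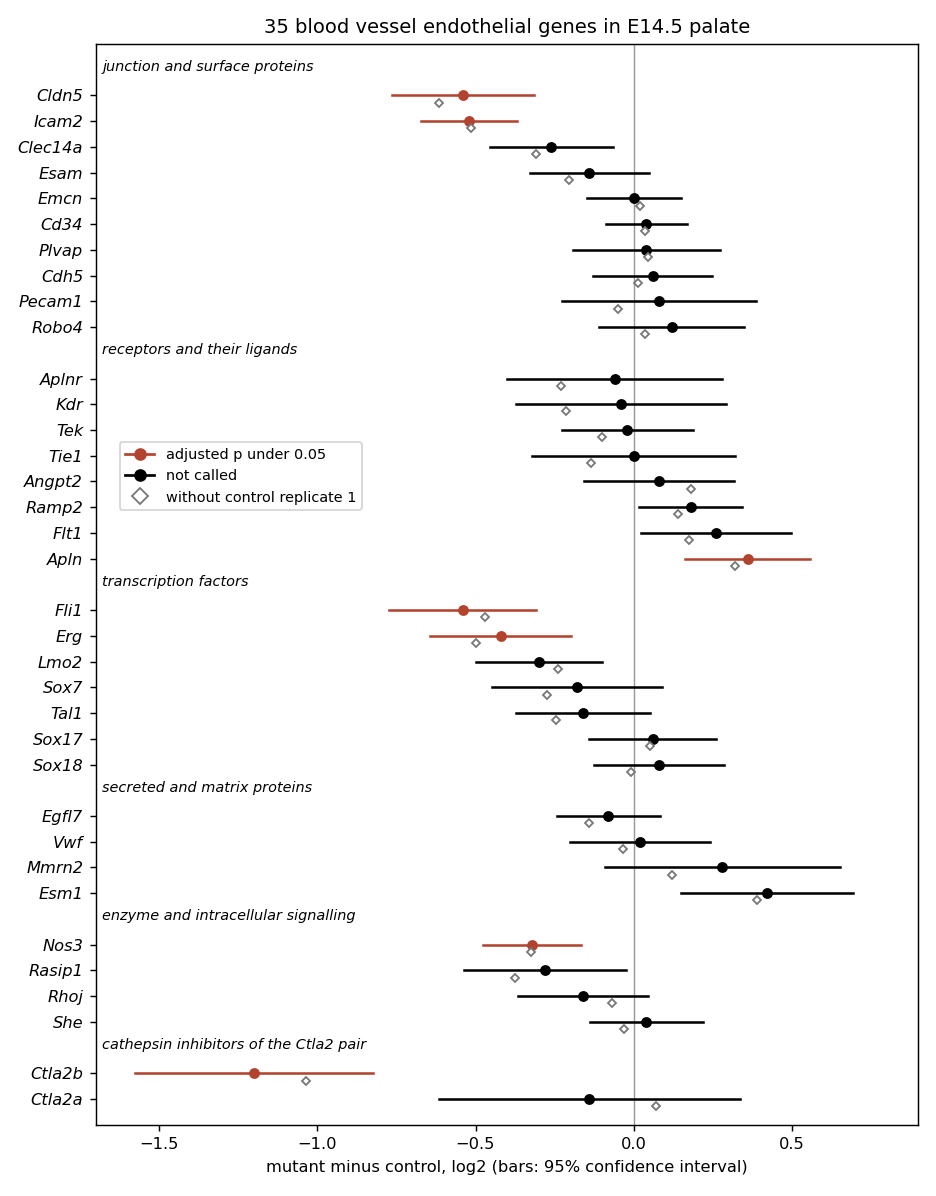
Mutant minus control differences on the log2 scale (horizontal axis) for the 35 endothelial genes, grouped by role on the vertical axis. Points are the fitted differences, bars their 95% confidence intervals (5 arrays per group), red marks an adjusted p under 0.05, and open diamonds give the difference without control replicate 1. Ctla2b lies farthest to the left at -1.2, and Cdh5, Emcn and Cd34 lie close to zero.

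The first control array differed from the rest, and it held the extreme value for many of the endothelial genes. Its correlation with the other arrays over all genes was 0.985 to 0.989, while the other 9 arrays correlated at 0.989 to 0.996 with each other. It was the lowest of all 10 arrays for 14 members, among them Pecam1, Cdh5, Kdr, Flt1, Tek and Tie1, and the highest for 6, namely Angpt2, Fli1, Lmo2, Rhoj, Ctla2a and Ctla2b. No other array was alone at the bottom for more than 3 members or at the top for more than 4. Without it, 9 members were called lower, adding Kdr, Clec14a and Rasip1 to the 6, against 6.1% of all genes, and Apln was again the 1 called higher, against 3.8% (9.89% of all genes in either direction). The mutant arrays then lay below every control array for 9 members, adding Erg, Kdr, Aplnr and Tal1, against 5.93% of all genes, and above for 0, against 2.76%. The median difference over the 35 genes was then -0.07. The palate mesenchyme markers averaged 10.7 in that array and 10.8 to 11.2 in the other controls, the erythroid markers 8.53 against 7.89 to 8.28, and the epithelial markers 11.2 against 10.6 to 10.9. Their part in the values of that array was not tested.

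**Figure D2:**
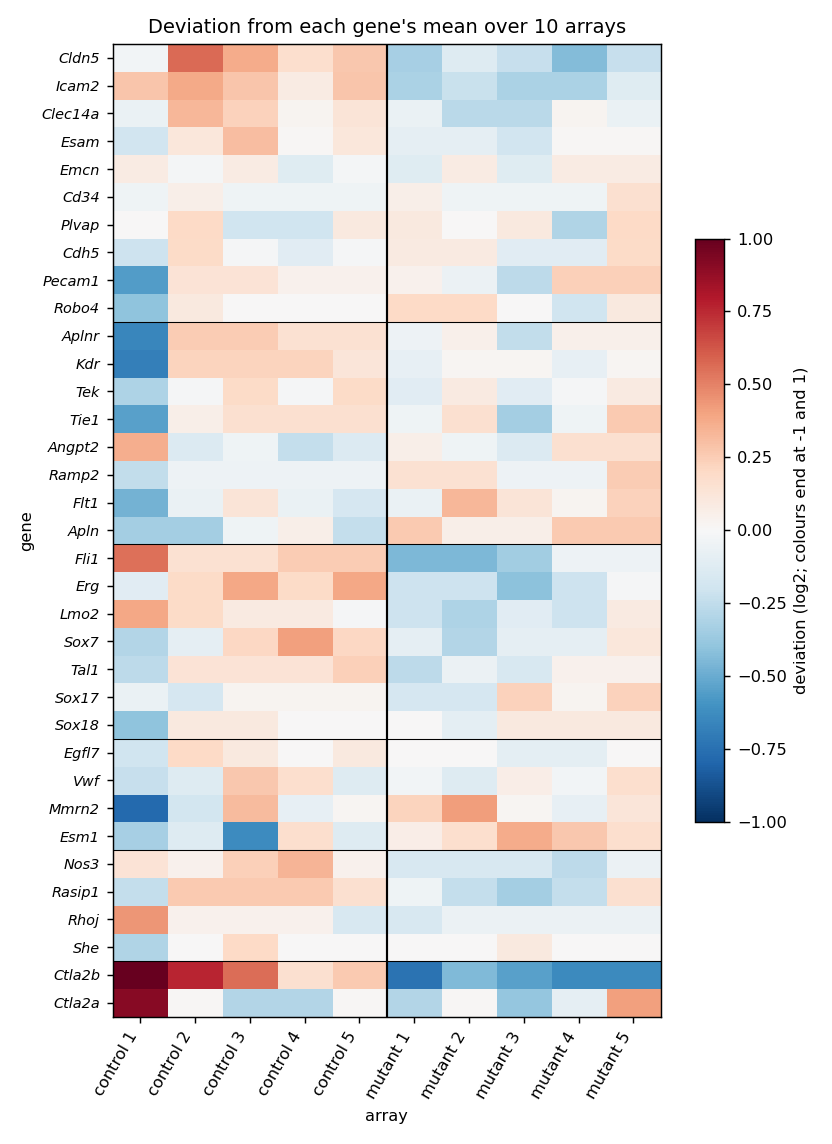
Each array's deviation from the gene's mean over all 10 arrays (log2), with genes in rows grouped by role and arrays in columns, controls to the left of the vertical line. Control replicate 1 is blue (low) for most receptors and red (high) for Fli1, Lmo2, Rhoj and the Ctla2 pair, and the rows of Cldn5, Icam2, Nos3 and Ctla2b are blue in all 5 mutant arrays.

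Among 10 junction and surface genes, the tight junction gene Cldn5 and the adhesion gene Icam2 were lower, none was higher and 8 were not called. Icam2, which encodes an adhesion molecule of endothelium that is also made by platelets and leukocytes, read 8.5, 8.6, 8.5, 8.3 and 8.5 in control replicates 1 to 5 and 7.9, 8.0, 7.9, 7.9 and 8.1 in mutant replicates 1 to 5 (log2). The groups did not overlap, and control replicate 1 lay with the other controls. Icam2 was 1.43-fold lower in the mutant (7.96 ± 0.09 against 8.48 ± 0.11, SD, n = 5 each), a difference of -0.52 (SE 0.07, limma adjusted p = 0.00191). Cldn5, which encodes claudin 5 of the endothelial tight junction, read 8.3, 8.9, 8.7, 8.5 and 8.6 in controls and 8.0, 8.2, 8.1, 7.9 and 8.1 in mutants. The groups again did not overlap, with control replicate 1 the lowest control. Cldn5 was 1.45-fold lower (8.06 ± 0.11 against 8.60 ± 0.22, SD, n = 5 each), a difference of -0.54 (SE 0.10, limma adjusted p = 0.0112), and the difference was -0.62 without control replicate 1. Both calls held in all 10 fits that lacked 1 array, with limma adjusted p up to 0.00861 for Icam2 and 0.0331 for Cldn5.

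Among surface genes often used to mark endothelium, Cdh5, Pecam1, Emcn, Cd34 and Plvap were not called. Cdh5, which encodes VE-cadherin of the adherens junction, read 7.3, 7.7, 7.5, 7.4 and 7.5 in controls and 7.6, 7.6, 7.4, 7.4 and 7.7 in mutants, so the groups overlapped throughout. Its difference was 0.06 (95% confidence interval -0.13 to 0.25, limma adjusted p = 0.71). The second Cdh5 probe set differed by 0.16. Pecam1, which encodes the adhesion molecule CD31, read 7.3, 8.0, 8.0, 7.9 and 7.9 in controls and 7.9, 7.8, 7.6, 8.1 and 8.1 in mutants, a difference of 0.08 (interval -0.23 to 0.39). Without control replicate 1, its lowest array, the difference was -0.05. Emcn, encoding the sialomucin endomucin, averaged 9.02 in both groups (interval -0.15 to 0.15). Cd34, encoding a sialomucin of vessels and blood progenitors, and Plvap, whose protein forms the diaphragms of endothelial pores, each differed by 0.04 (intervals -0.09 to 0.17 and -0.19 to 0.27).

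The remaining surface genes were Clec14a, Esam and Robo4. Clec14a, encoding a lectin-like receptor of vessels, read 7.7, 8.1, 8.0, 7.8 and 7.9 in controls and 7.7, 7.5, 7.5, 7.8 and 7.7 in mutants, with overlap through control replicate 1 and mutant replicate 4. Its difference of -0.26 was not called (limma adjusted p = 0.0921). It was -0.31 and called without control replicate 1 (0.0422), and over all 19 alternatives the adjusted p ran from 0.0311 to 0.317. Its dimmer probe set differed by -0.30, with no overlap between the groups and an adjusted p of 0.0372 in the limma fit over all probe sets. Esam, an adhesion molecule of endothelial junctions, differed by -0.14 (interval -0.33 to 0.05), and Robo4, a vessel receptor of the roundabout family, by 0.12 (interval -0.11 to 0.35).

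**Figure D3:**
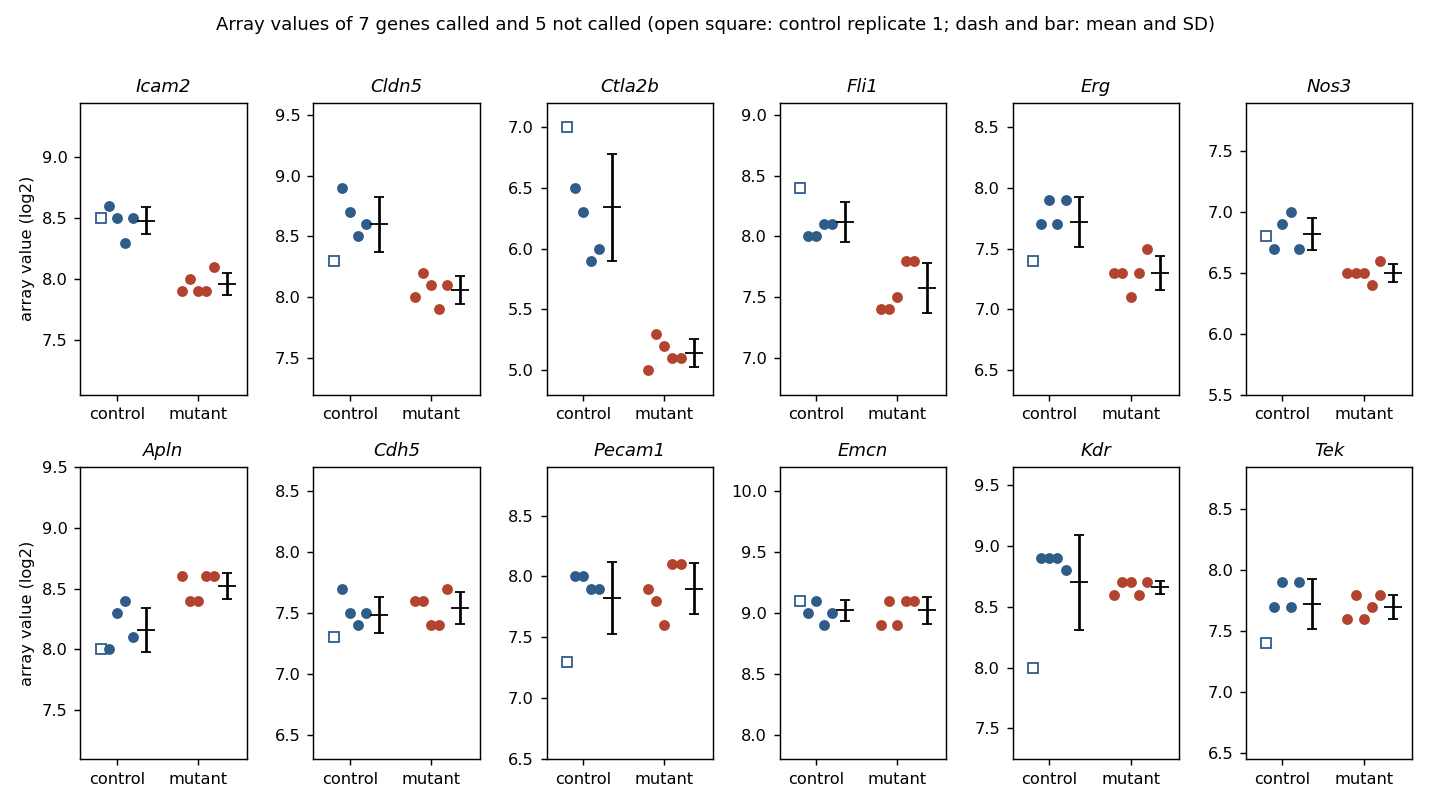
Log2 array values (vertical axis, every panel spanning the same range) in control and mutant palate for the 7 endothelial genes that were called and for Cdh5, Pecam1, Emcn, Kdr and Tek, which were not. Each point is 1 array, the open square is control replicate 1, and the dash and bar are the mean and SD of 5 arrays. Mutant and control points are apart for Icam2, Cldn5, Ctla2b, Fli1 and Nos3 and overlap for Cdh5, Pecam1, Emcn, Kdr and Tek.

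Of 8 genes for receptors and their ligands, Apln was higher, none was lower and 7 were not called. Apln encodes apelin, a peptide that sprouting endothelium secretes and that acts on the receptor encoded by Aplnr. It read 8.0, 8.0, 8.3, 8.4 and 8.1 in controls and 8.6, 8.4, 8.4, 8.6 and 8.6 in mutants, touching only where control replicate 4 equalled the lowest mutants. Apln was 1.28-fold higher (8.52 ± 0.11 against 8.16 ± 0.18, SD, n = 5 each), a difference of 0.36 (SE 0.09, limma adjusted p = 0.0327). This call was lost without any 1 of 6 arrays, namely mutant replicates 1, 3, 4 and 5 and control replicates 2 and 5, with limma adjusted p up to 0.0756. Aplnr itself differed by -0.06 (interval -0.40 to 0.28), and its controls read 10.4 in replicate 1 and 11.2 to 11.3 in the others, against 10.8 to 11.1 in mutants. Without control replicate 1 the mutant arrays all lay below the controls for Aplnr, a difference of -0.23 that was not called (limma adjusted p = 0.0663, and 0.0663 to 0.990 over the 19 alternatives). The dimmer Aplnr probe set differed by -0.28 and was not called (adjusted p of 0.266 in the limma fit over all probe sets). On it, control replicate 1 read 7.5 and the other controls 8.0 to 8.3, against 7.5 to 7.8 in mutants.

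The result for Kdr turned on 1 array. Kdr encodes VEGFR2, the main receptor through which VEGF drives endothelial growth. It read 8.0, 8.9, 8.9, 8.9 and 8.8 in controls and 8.6, 8.7, 8.7, 8.6 and 8.7 in mutants. With control replicate 1 the difference was -0.04 (interval -0.37 to 0.29, limma adjusted p = 0.895). Without it the groups did not overlap, and Kdr was called lower, with a difference of -0.22 (limma adjusted p = 0.0276, against up to 0.978 among the 19 alternatives). The sign of the small difference was not stable, since it was 0.04 after quantile normalization or median centring, 0.12 with a Y-linked covariate and 0.01 without any 1 of control replicates 2, 3 or 4. Tek and Tie1, which encode the TIE receptors, differed by -0.02 (interval -0.23 to 0.19) and 0.00 (interval -0.32 to 0.32). Flt1, encoding VEGFR1, a receptor that also acts as a VEGF trap, differed by 0.26 (interval 0.02 to 0.50, limma adjusted p = 0.162). The 3 dimmer Flt1 probe sets differed by 0.18 to 0.26. Angpt2, a ligand of TEK, differed by 0.08, and Ramp2, a partner protein of the adrenomedullin receptor, by 0.18 (limma adjusted p = 0.161). The 2 probe sets listed for both Ramp2 and Vps25, and therefore left out of the gene values, differed by -0.14 and -0.06.

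Of 7 transcription factor genes, the ETS genes Fli1 and Erg were lower, none was higher and 5 were not called. Fli1, which is also active in megakaryocytes and other blood cells, read 8.4, 8.0, 8.0, 8.1 and 8.1 in controls and 7.4, 7.4, 7.5, 7.8 and 7.8 in mutants. The groups did not overlap, and control replicate 1 was the highest array. Fli1 was 1.45-fold lower (7.58 ± 0.20 against 8.12 ± 0.16, SD, n = 5 each), a difference of -0.54 (SE 0.11, limma adjusted p = 0.0131) and of -0.47 without control replicate 1. Its second probe set separated the groups too, with a difference of -0.68. Erg, a factor of endothelium that also acts in blood stem cells, read 7.4, 7.7, 7.9, 7.7 and 7.9 in controls and 7.3, 7.3, 7.1, 7.3 and 7.5 in mutants. The groups overlapped only through control replicate 1. Erg was 1.34-fold lower (7.30 ± 0.14 against 7.72 ± 0.20, SD, n = 5 each), a difference of -0.42 (SE 0.10, limma adjusted p = 0.0298) and of -0.50 without control replicate 1 (0.00649). The call was lost when any 1 of 7 other arrays was left out, namely mutant replicates 1 to 4 and control replicates 3 to 5, with limma adjusted p from 0.00649 to 0.0749 over the 10 arrays in turn. Its dimmer probe set differed by only -0.12.

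The SOX genes were not called. Sox17 and Sox18, which encode related SOX factors of arterial and early vessel endothelium, differed by 0.06 (interval -0.14 to 0.26) and 0.08 (interval -0.13 to 0.29), while Sox7 differed by -0.18 (interval -0.45 to 0.09). The second probe set of Sox17 gave -0.14. Tal1 and Lmo2, whose proteins work together in blood and vessel progenitors, differed by -0.16 and -0.30 (limma adjusted p = 0.334 and 0.0644). Lmo2 read 8.2, 8.0, 7.9, 7.9 and 7.8 in controls and 7.6, 7.5, 7.7, 7.6 and 7.9 in mutants, with mutant replicate 5 among the controls, and it was called lower without that array.

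The Ctla2 pair gave the largest difference of the list. Ctla2a and Ctla2b encode small proteins related to the propeptide of cathepsins and known as inhibitors of such proteases, and both genes are also active in some lymphoid cells. Ctla2b read 7.0, 6.5, 6.3, 5.9 and 6.0 in controls and 5.0, 5.3, 5.2, 5.1 and 5.1 in mutants, so even the lowest control lay 0.6 above the highest mutant. Ctla2b was 2.30-fold lower (5.14 ± 0.11 against 6.34 ± 0.44, SD, n = 5 each), a difference of -1.2 (SE 0.17, limma adjusted p = 0.00282) and of -1.04 without control replicate 1, its highest array. Ctla2a read 8.6, 7.7, 7.4, 7.4 and 7.7 in controls and 7.4, 7.7, 7.3, 7.6 and 8.1 in mutants, with full overlap. Its difference was -0.14 (interval -0.62 to 0.34), and 0.07 without control replicate 1. The difference between the genes was taken within each array, a measure chosen after the values were seen. Ctla2b minus Ctla2a was -2.48 ± 0.33 in mutants and -1.42 ± 0.26 in controls (SD, n = 5 each), a shift of -1.06 that is given as a description, with no test. Without control replicate 1 the shift was -1.11. A probe set listed for both genes, and therefore left out of the gene values, averaged 7.0 ± 0.30 in mutants and 7.32 ± 0.33 in controls. How far the single probe set of either gene also detects the other was not tested.

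**Figure D4:**
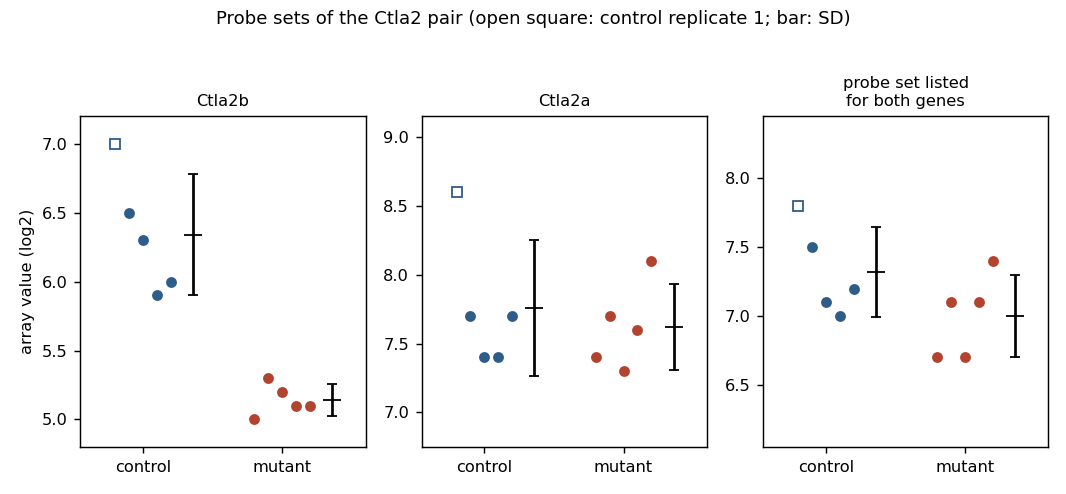
Log2 array values (vertical axis, every panel spanning the same range at its own level) for the probe sets of Ctla2b, of Ctla2a and of the probe set listed for both genes, in control and mutant palate. Points are arrays, the open square is control replicate 1, and the dash and bar are the mean and SD of 5 arrays. Only the Ctla2b panel shows groups that do not overlap, with mutants at 5.0 to 5.3 and controls at 5.9 to 7.0.

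Of 4 enzyme and signalling genes, Nos3 was lower, none was higher and 3 were not called. Nos3, which encodes the endothelial nitric oxide synthase that relaxes vessels, read 6.8, 6.7, 6.9, 7.0 and 6.7 in controls and 6.5, 6.5, 6.5, 6.4 and 6.6 in mutants, without overlap. It was 1.25-fold lower (6.5 ± 0.07 against 6.82 ± 0.13, SD, n = 5 each), a difference of -0.32 (SE 0.07, limma adjusted p = 0.0206). The call was lost without mutant replicate 3 or without control replicate 3, with limma adjusted p up to 0.0543. Rasip1, a RAS-interacting protein needed for vessel lumens, differed by -0.28 (limma adjusted p = 0.162). It was called at -0.38 without control replicate 1, its lowest control (0.0321, against up to 0.512 among the 19 alternatives). Rhoj, encoding a small GTPase of endothelium, differed by -0.16 (interval -0.36 to 0.04). She, encoding an SH2 domain adaptor, differed by 0.04 on its brighter probe set, whereas the dimmer one differed by -0.36, with no overlap and an adjusted p of 0.0209 in the limma fit over all probe sets.

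None of the 4 genes for secreted and matrix proteins was called by limma, and 1, Esm1, had an unadjusted p under 0.05. Egfl7, a secreted regulator of vessel tubes, differed by -0.08, with its other 3 probe sets at 0.00 to 0.08. Vwf, the clotting factor stored by endothelium and platelets, differed by 0.02 (interval -0.20 to 0.24). Mmrn2, a matrix glycoprotein of vessels, differed by 0.28 (interval -0.09 to 0.65), with its lowest value, 7.5, in control replicate 1. Esm1, encoding the proteoglycan endocan of sprouting tip cells, read 4.1, 4.3, 3.8, 4.6 and 4.3 in controls and 4.5, 4.6, 4.8, 4.7 and 4.6 in mutants. The difference of 0.42 was not called (limma adjusted p = 0.0597) and lay near the low end of the arrays, whose 25th percentile over all probe sets was 4.7.

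Other genes of vessels were called in both directions. Of 28 further endothelial genes, 2 were lower, 2 were higher and 24 were not called, with a median of 0.02. The shares over all genes were 5.36% lower and 2.91% higher. Mfsd2a, a lipid transporter of barrier endothelium, was lower by a difference of -0.46 (SE 0.06, limma adjusted p = 0.00229), and the glucose transporter gene Slc2a1 was higher by 0.30 (SE 0.06, limma adjusted p = 0.0169). Slc2a1 averaged 11.2 in mutants and 10.9 in controls, and which palate cells gave this signal was not tested. Gpihbp1, which anchors lipoprotein lipase to capillaries, was higher by 0.28, a call that was lost in 8 of the 10 fits with 1 array left out. Afap1l1, encoding an actin filament adaptor, differed by -0.32 (limma adjusted p = 0.0414), a call lost in 9 of those fits, the one without control replicate 1 among them. Without that array, 3 of the 28 were lower and 2 higher, against 6.1% and 3.8% of all genes, and the median was -0.055. Podxl (-0.245) and Ushbp1 (-0.285) were then newly called lower (limma adjusted p = 0.0257 and 0.0321). Endoglin and ALK1, the TGF-beta family receptors of endothelium encoded by Eng and Acvrl1, were not called, with differences of 0.24 (interval 0.04 to 0.44) and 0.12 (interval -0.03 to 0.27).

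Of 12 genes of VEGF, angiopoietin and adrenomedullin signalling, 3 were higher, 1 was lower and 8 were not called, against 2.91% of all genes higher and 5.36% lower. The median of the 12 differences was 0.17, and 0.0725 without control replicate 1. Adm, which encodes adrenomedullin, was higher by 0.64 and Vegfa, the main endothelial growth factor, by 0.56 (SE 0.08 and 0.11, limma adjusted p = 0.00160 and 0.0139), while Pgf, encoding placental growth factor, was lower by a difference of -0.62 (SE 0.12, limma adjusted p = 0.0122). For these 3 the groups did not overlap, and each was called in all 10 fits that lacked 1 array. Nrp1, encoding a co-receptor for VEGF, was the third gene that was higher, by 0.32 (limma adjusted p = 0.0362), a call lost in 8 of the 10 fits, the one without control replicate 1 among them. The angiopoietin gene Angpt1 differed by 0.22 (interval -0.01 to 0.45). Of 15 arterial, venous and Notch genes, Cxcr4, a chemokine receptor of endothelium and leukocytes, was lower by a difference of -0.66 (SE 0.16, limma adjusted p = 0.0304) and 14 were not called. The Cxcr4 call was lost without mutant replicate 2, mutant replicate 3 or control replicate 3 (limma adjusted p up to 0.0717).

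Markers of other cells that share some of these genes were measured beside them. In the same fit 5.36% of all genes were called lower and 2.91% higher. Of 14 macrophage and leukocyte markers, 0 were lower and 1, Laptm5, was higher in the limma fit (adjusted p = 0.0476, lost in 9 of 10 fits with 1 array left out), and their mean level was 7.45 to 7.69 in mutants and 7.31 to 7.81 in controls. Of 7 measured megakaryocyte and platelet markers, Pf4 was lower by a difference of -0.62 (limma adjusted p = 0.0156) and Ppbp was higher by 1.48 (0.0430, lost in 8 of 10 fits, also without control replicate 1, where it was 0.0740). Of the 7 differences, 6 were positive (median 0.16) and that of Pf4 was the 1 negative. Itga2b, the platelet integrin, and Gp9, a platelet glycoprotein, differed by 0.12 and 0.06. The mean level of all 7 megakaryocyte and platelet markers was 6.41 to 6.83 in mutants and 6.31 to 6.53 in controls. Of 5 measured lymphatic markers, Mmrn1 and Lyve1 were lower (differences of -0.58 and -0.88, limma adjusted p = 0.00119 and 0.0304, the second lost in 5 of 10 fits with 1 array left out), with a mean level of 6.96 to 7.16 in mutants and 7.26 to 7.72 in controls. Prox1, the defining transcription factor of lymphatic endothelium, differed by -0.36 (interval -0.75 to 0.03) and was not called. Without control replicate 1, which read 6.4 against 5.3 to 5.7 in the other controls, its difference was -0.17. Of 10 pericyte markers, Ndufa4l2 was higher by 1.12 and Rgs5 lower by a difference of -0.46 (limma adjusted p = 0.00152 and 0.0325, the second lost in 5 of 10 such fits), with mean levels of 7.86 to 8.09 in mutants and 7.76 to 8.0 in controls. Of 8 measured erythroid markers, 0 were called by limma (4 at an unadjusted p under 0.05), 7 differences were negative (median -0.17, and -0.10 without control replicate 1), and the globin genes Hba-x and Hbb-bh1 differed by -0.64 and -1.18 (limma adjusted p = 0.0617 and 0.125). Hbb-bh1 read 8.9 in control replicate 1 and 5.9 to 7.4 in the other controls, and without that array it differed by -0.72. The part of these cells in the endothelial values was not tested, nor was which cells gave the Pf4 and Lyve1 signals. Of the palate's larger compartments, 0 of 8 mesenchyme and 0 of 8 epithelial markers were called in the limma fit (2 and 3 at an unadjusted p under 0.05). Without control replicate 1, 3 epithelial markers were higher with no overlap, namely Krt8 (0.73), Krt18 (0.61) and Cdh1 (0.36), with limma adjusted p of 0.00491, 0.0113 and 0.0129. Of 8 skeletal muscle markers, 6 were lower, and their mean level was 7.85 in mutant replicate 4, within the control range of 7.66 to 8.84, against 5.75 to 6.56 in the other mutants. Of the 6, Myf5, a factor of muscle precursors, differed by -1.86, Actn2, of the sarcomere, by -1.98 and Tnnt1, a troponin, by -1.74 (limma adjusted p = 0.00258, 0.0131 and 0.0160). The calls of Ttn, Acta1 and Myod1 each held in only 2 or 3 of the 10 fits with 1 array left out, and all 3 were lost without mutant replicate 1, 2, 3 or 5.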

How the data were processed

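Total RNA of secondary palate was labelled by the Affymetrix protocol, per the labels' protocols, and the 10 samples have 1 array each. The deposited log2 values were made by the authors with RMA, per the submitters' processing notes (no version named). They run from 2.2 to 14.3 and are rounded to 1 decimal, which leaves differences below 0.1 coarse. The number of arrays limits the precision. No batch is named in the labels. Probe sets were named from GEO's platform annotation, with symbols updated through Entrez IDs in a RefSeq table (GRCm38.p6, 34754 of 34958 found). Of 45101 probe sets, 34958 had 1 symbol, 932 several and 9211 none, and only the first were used. For a gene with several probe sets, the brightest by its average over all 10 arrays was taken. Among the 35 endothelial genes, 12 had several probe sets, 53 in all.

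The mutant and control groups were compared with limma's lmFit and eBayes (version 3.58.1, under R 4.3.3; two-sided, no covariate, no filter), and the fit was tested on simulated data. Alternatives were the mean of probe sets, all probe sets, the brighter 60% of genes, trend and robust fitting, quantile normalization, median centring, array weights, Eif2s3y as a covariate (a Y-linked gene), the replicate number as a block, and each array left out. Every endothelial gene is named. From each pathway list up to 3 called genes with the smallest p are named, or the 1 with the smallest p, and from each marker list up to 3 called genes. Afap1l1, Nrp1, Eng, Acvrl1, Angpt1, Itga2b, Gp9, Prox1, Krt8, Krt18, Cdh1, Ttn, Acta1, Myod1, Hba-x and Hbb-bh1 were named in addition, with their values seen. Podxl and Ushbp1 were added in the same way. The members and lists were chosen with earlier results of these data known. Some genes of the marker lists are not reported here.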

Additional observations from a re-analysis of the deposited data

Results flagged for a closer look

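In 14 of 70 sets of 5 arrays (35 genes in each group), 1 array lay far from the other 4 by Dixon's criterion at 95%. Chance alone marks about 1 in 20 such groups where the values are normally distributed and not rounded. The rate for these values, rounded to steps of 0.1, was not determined. Genes measured on the same arrays are also not independent. In 11 of the 14 the array was control replicate 1. It was low for Pecam1 (7.3, against 7.9 to 8.0 in the other controls), Robo4 (6.7, against 7.1 to 7.2), Kdr (8.0, against 8.8 to 8.9), Tie1 (6.9, against 7.5 to 7.6) and Aplnr (10.4, against 11.2 to 11.3). It was also low for Ramp2 (9.3, against 9.5), Sox18 (8.4, against 8.8 to 8.9), Tal1 (6.1, against 6.5 to 6.6) and Rasip1 (6.4, against 6.8 to 6.9). It was high for Fli1 (8.4, against 8.0 to 8.1) and Ctla2a (8.6, against 7.4 to 7.7). The remaining 3 were single steps of 0.1 in the rounded values: Cd34 in control replicate 2 (9.5, against 9.4), Rhoj in mutant replicate 1 (7.7, against 7.8) and She in mutant replicate 3 (7.8, against 7.7).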

How the results depend on the processing

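Cldn5, Icam2 and Fli1 were called lower under all 19 alternatives and Ctla2b under the 18 in which it was tested, since it was not among the brighter 60% of genes. Nos3 was called under 15, Apln under 11 and Erg under 7 of the 19. No member that was called turned its sign. The number of members called lower stayed between 4 and 8 under the alternatives that used all 10 arrays and between 4 and 9 with 1 array left out, and the median difference ran from -0.08 to 0.06 over all alternatives. Members called higher were 2 with median centring and 0 with the Eif2s3y covariate, and 0 to 2 with 1 array left out. With 1 array left out, the number called in either direction was lowest without mutant replicate 3 (4, with 643 of all genes called). It was highest when control replicate 1 was removed (10, with 1800 of all genes called). With the replicate number as a block, 4 members were called, all lower (Cldn5, Icam2, Fli1 and Ctla2b), and 0 higher, with 532 of all genes called. Samples of the same number did not deviate together (correlations of -0.10 to 0.11, 0 of 10 arrays closest to their own number). These values gave no sign of pairing by number, but they cannot show whether samples of the same number were collected together. The causes of these differences were not tested. Differences of 0.1 equal 1 step of the deposited values, and Esm1 and the mutant values of Ctla2b lie near the low end of the arrays.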
